A study of Solanum lycopersicum with 18 samples.

Results

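Micro-TOM-EX, a tomato (Solanum lycopersicum) that the labels list as a cultivar, was followed in leaves over the first 2 h of NaCl treatment by RNA sequencing. Members were the libraries carrying its name at 0 h and at 2 h, 3 of each, so 6 of the 18 libraries of the series. The plants stood in greenhouse soil under 16 h of light, and the salt dose, the sampling hour of the day and what sets Micro-TOM-EX apart from Micro-TOM are unstated in the labels. The other 12 libraries, Micro-TOM at 0, 2 and 8 h and Micro-TOM-EX at 8 h, entered the fit to estimate the spread, and Micro-TOM at 0 and 2 h served to test where the responses differed. No leaves kept for 2 h without salt were analysed here, so the salt and the hours that passed cannot be told apart in any value that follows. Whether the 3 libraries at an hour stem from different plants is not stated in the labels. Each p-value therefore reflects only how far these libraries scatter, which may be technical.

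Salt reaches a leaf first as a shortage of water and only later as sodium in the cells. Water shortage raises the hormone abscisic acid, whose receptors block the phosphatases of clade A and so free the SnRK2 kinases to switch on transcription factors of the AREB and ABI5 type. Their targets include late embryogenesis abundant (LEA) proteins and dehydrins, which shield membranes and proteins, and enzymes that make compatible solutes, while growth and photosynthesis are usually turned down.

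Expression was given as FPKM, fragments scaled by transcript length and library size, and changes are differences of log2(FPKM + 1) from limma, which understate the change of low genes. The 6 libraries summed to between 738668 and 778924 FPKM over 23808 genes, and their relative depths, read from the smallest steps of 47 genes, lay between 0.971 and 1.04 of the median of the 18 libraries. Libraries of one hour correlated at 0.969 to 0.993 across genes at 0 h and 0.969 to 0.991 at 2 h, against 0.686 to 0.761 between the hours. Replicate 2 of 0 h stood apart from its group toward the treated side mainly in rising genes: it was the highest 0 h library in 946 of the 1313 genes that rose at least 4-fold. Of the 1630 genes that fell at least 4-fold it was the lowest 0 h library in 698, and replicate 1 was in 589. Its median ratio to the libraries was 1.24, beside 1.07 and 1.08 in the other 0 h libraries and 0.79 to 0.87 at 2 h. Replicate 1 of 2 h stood nearer to 0 h than its group, and over the 2943 genes that changed at least 4-fold it reached a median of 0.893 of the log2 change of the other 2 h libraries. The tissue label was checked against leaf markers: chlorophyll-binding and Rubisco genes took 7.71% to 8.55% of all FPKM at 0 h and 2.11% to 5.10% at 2 h, whereas the 8 root marker genes summed to 0.49 to 4.01 FPKM in the 6 libraries and 6 of them fell below the filter.

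Of 18402 genes with at least 1 FPKM in 3 or more libraries, 13968 (75.9%) differed between 2 h and 0 h at an adjusted p under 0.05 in limma. The split was 4919 genes higher (26.7%) and 9049 lower (49.2%), and 2897 (15.7%) and 5240 (28.5%) of these moved at least 2-fold. The libraries of the hours did not overlap in 14060 genes (76.4%). FPKM is a share of each library, and the median log2 change over all genes was -0.37. Dividing each library by its median ratio to the others shifted the changes up by a median of 0.39 over genes. It gave 6716 genes higher (36.6%) and 6813 lower (37.1%) of 18365. A small fall on the deposited scale can therefore be no change or a rise on the rescaled one, and counts of gene lists are given on both scales below.

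**Figure D1:**
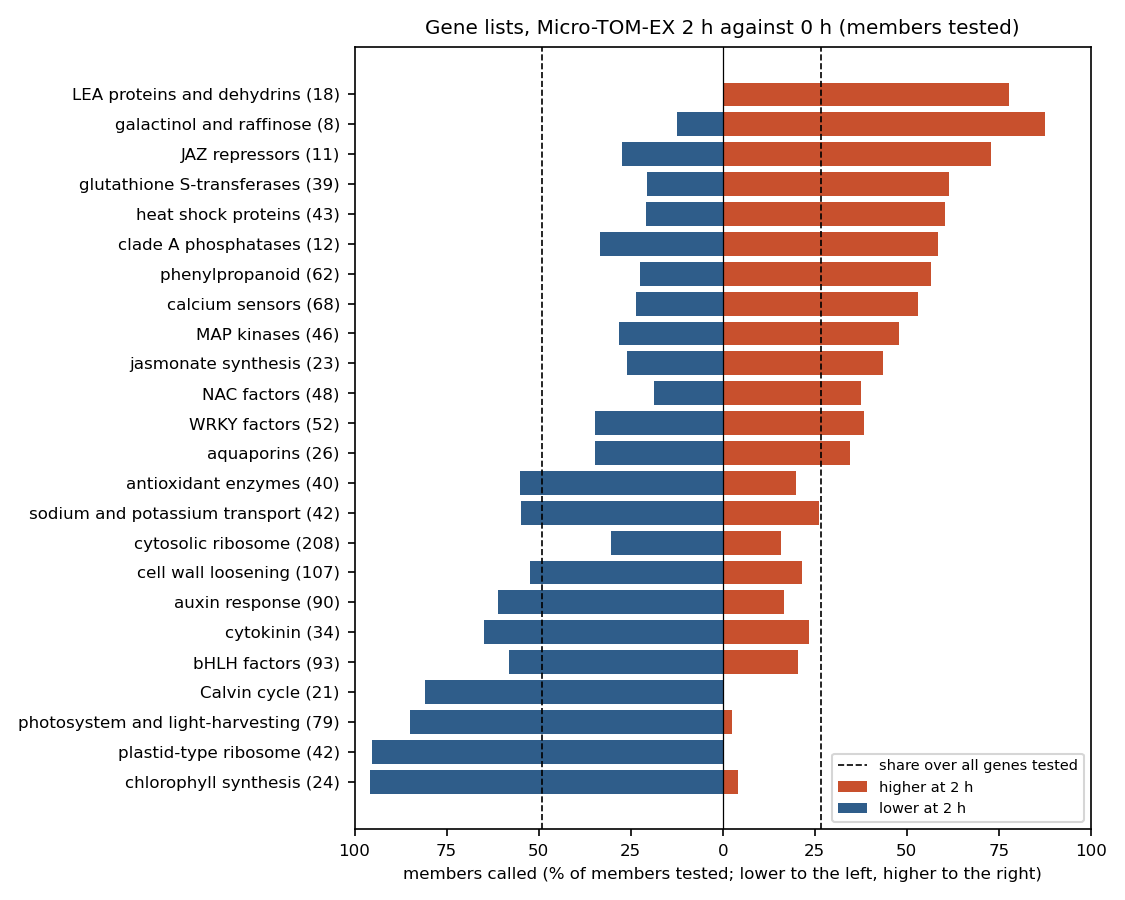
Share of the tested members of 24 gene lists that were higher (right) or lower (left) at 2 h than at 0 h in limma, in percent, with the number tested in brackets and dashed lines at the shares over all genes, 26.7% and 49.2%. LEA proteins, galactinol and raffinose enzymes and JAZ repressors lie farthest to the right, and chlorophyll synthesis, plastid-type ribosomal and photosystem genes farthest to the left.

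The largest single gains of transcript included dehydrins, a LEA-like gene, a small membrane protein and a cell wall protein. The dehydrin dhn (chromosome 4, 65957607 to 65958844 in the deposited table, whose genome build is not named) read 93.2, 414 and 104 FPKM at 0 h and 8739, 13725 and 13024 FPKM at 2 h (log2 change 6.18 ± 0.48 SE, adjusted p = 1.2e-08). A further dehydrin, the HIRD11-type LOC101247023, read 286, 567 and 379.7 FPKM at 0 h and 8436, 12513 and 13035 FPKM at 2 h (log2 change 4.81 ± 0.40 SE, adjusted p = 2.4e-08). All 2 h libraries lay far above all 0 h libraries for both genes, and replicate 2 was the highest of the 0 h group each time. The RARE-COLD-INDUCIBLE 2B-like gene LOC101267065, of a family of small membrane proteins, read 49.8, 176 and 68.8 FPKM at 0 h and 3557, 5713 and 4402 FPKM at 2 h (log2 change 5.71 ± 0.38 SE, adjusted p = 1.9e-09). ER5, an ethylene-responsive LEA-like gene first described in tomato fruit and leaf, read 28.3, 34.6 and 16.2 FPKM at 0 h and 2546, 5188 and 3747 FPKM at 2 h (log2 change 7.13 ± 0.50 SE, adjusted p = 3.4e-09). The classical arabinogalactan protein LOC101265917, a cell wall glycoprotein, read 153, 594 and 218 FPKM at 0 h and 4086, 4661 and 4215 FPKM at 2 h (log2 change 3.99 ± 0.48 SE, adjusted p = 1.6e-06). No overlap of the hours was a condition for choosing these genes, and replicate 2 was the highest 0 h library in all 3.

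Among the largest fold changes, transcription factors and hormone enzymes stood beside a respiration gene. The ABR1-like factor LOC101263697 (chromosome 4, 50428729 to 50430255), whose Arabidopsis namesake represses abscisic acid responses, read 0.05, 0 and 0.05 FPKM at 0 h and 122, 312 and 157 FPKM at 2 h (log2 change 7.47 ± 0.42 SE, adjusted p = 3.5e-10). The EID1-like F-box gene LOC101250923 read 0.18, 3.57 and 0.39 FPKM at 0 h and 288, 419.8 and 309 FPKM at 2 h (log2 change 7.42). LOC101246970, a GH3.1-type enzyme that ties auxin to amino acids, read 0.4, 0.44 and 0.4 FPKM at 0 h and 182, 268 and 203 FPKM at 2 h (log2 change 7.25). The coactivator ER24 read 2.42, 4.61 and 2.7 FPKM at 0 h and 719, 509 and 611 FPKM at 2 h (log2 change 7.20). The hours were far apart in each of these genes, and no 0 h library exceeded the 4.61 FPKM of ER24 in replicate 2. The alternative oxidase AOX1b (LOC543825), which passes electrons from ubiquinol to oxygen, read 0.57, 3.39 and 0.37 FPKM at 0 h and 598, 514 and 538 FPKM at 2 h (log2 change 8.02), again with replicate 2 the highest before treatment.

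The largest falls were in genes of several kinds, among them growth-related genes, transporters, a sugar enzyme and transcription factors. The EXORDIUM-like gene LOC104644303 (chromosome 4, 60437911 to 60439062), of a family that promotes growth under brassinosteroids in Arabidopsis, read 309.6, 367 and 347 FPKM at 0 h and 1.36, 2.43 and 0.69 FPKM at 2 h (log2 change -7.16 ± 0.23 SE, adjusted p = 1.7e-12). The GAST1-like gene LOC101252867, of a gibberellin-stimulated family, read 257, 413 and 335 FPKM at 0 h and 5.57, 0.66 and 0.98 FPKM at 2 h (log2 change -6.89 ± 0.52 SE, adjusted p = 7.8e-09). LOC101250924, an NRT1/PTR 7.3 transporter whose Arabidopsis relative loads nitrate into the xylem, read 335, 180.3 and 302 FPKM at 0 h and 1.61, 1.84 and 0.95 FPKM at 2 h (log2 change -6.76). The hours were far apart in all 3 genes, the highest treated value being the 5.57 FPKM of LOC101252867 in replicate 1. The fructose-bisphosphate aldolase SlFBA6, of sugar metabolism, read 637, 379 and 590.3 FPKM at 0 h and 36.7, 0 and 0 FPKM at 2 h (log2 change -7.29 ± 0.96 SE, adjusted p = 4e-06), so 2 treated libraries listed it at 0 and replicate 1 did not. In the authors' deposited table its log2 change was -2.11 with q = 0.23, which does not pass. The ZAT10-like zinc finger gene LOC101256572 read 418, 267 and 412 FPKM at 0 h and 3.82, 2.08 and 3.56 FPKM at 2 h (log2 change -6.46). CBF1, the cold-response activator of the AP2/ERF family, read 721, 506 and 605 FPKM at 0 h and 9.3, 15 and 9.37 FPKM at 2 h (log2 change -5.66 ± 0.36 SE, adjusted p = 1.5e-09). The GATA factor LOC101268354, of a type that promotes greening in Arabidopsis, read 102, 77.8 and 119 FPKM at 0 h and 1.79, 0.49 and 1.1 FPKM at 2 h (log2 change -5.59). These regulators of stress and greening thus stood low in all 3 treated libraries, and replicate 2 was the lowest of the 0 h group in each of the 3.

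**Figure D2:**
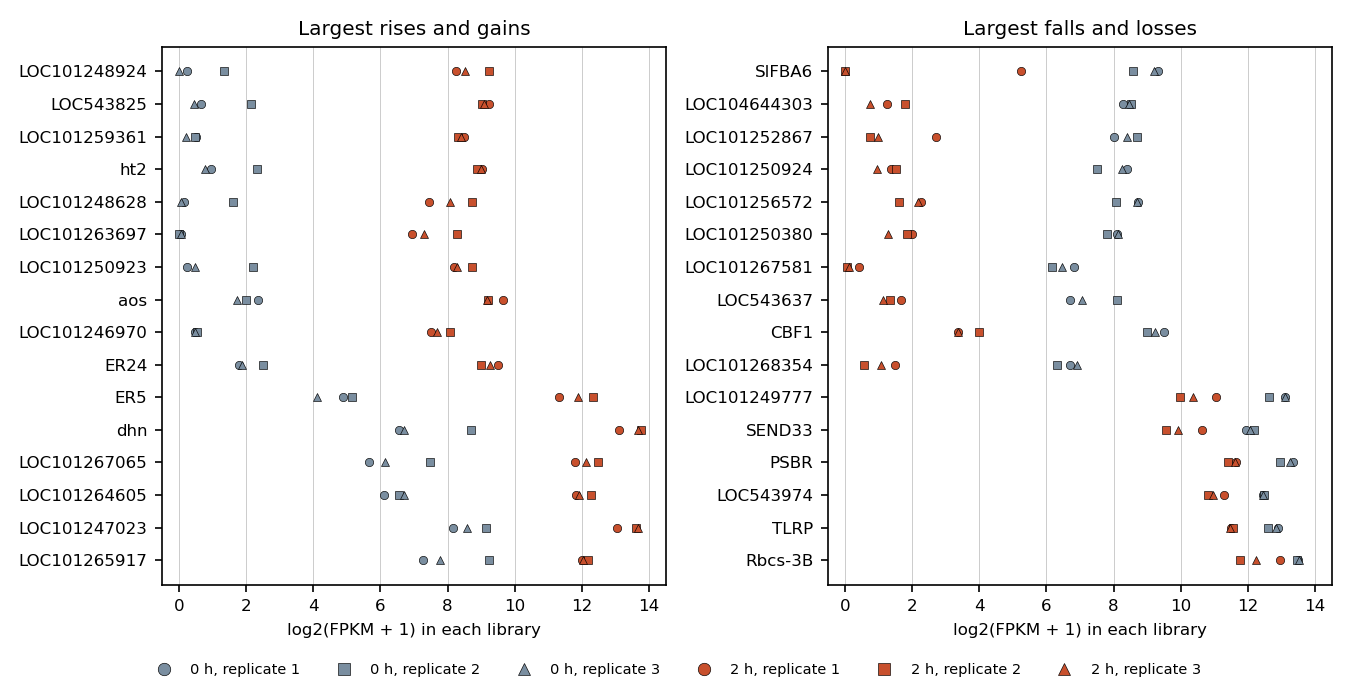
log2(FPKM + 1) in each of the 6 libraries (grey 0 h, orange 2 h, one symbol per replicate) for the genes with the largest rises and gains (left) and the largest falls and losses (right). Only genes with a descriptive name and no overlap of the hours could be shown. SlFBA6 was listed at 0 in replicates 2 and 3 of 2 h, and dhn reached 13725 FPKM.

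Enzymes that make abscisic acid did not move together. Of 11 tested genes in the synthesis list, 3 were higher at 2 h, 5 were lower and 3 did not pass, with a median log2 change of -0.10 that turns to 0.24 after rescaling (5 and 5). These shares, 27.3% and 45.5%, were near the 26.7% and 49.2% over all genes. The beta-carotene hydroxylase CrtR-b2, of the carotenoid steps upstream, read 0.7, 2.39 and 0.95 FPKM at 0 h and 88.8, 172 and 131 FPKM at 2 h (log2 change 5.83 ± 0.37 SE, adjusted p = 1.2e-09). Its relative CrtR-b1 went the other way and read 299, 353 and 351 FPKM at 0 h and 84.8, 48.3 and 52.6 FPKM at 2 h (log2 change -2.45 ± 0.24 SE, adjusted p = 1.7e-07). FLACCA, which supplies the cofactor of the last enzyme, read 3.09, 4.16 and 2.73 FPKM at 0 h and 9.29, 9.91 and 9.12 FPKM at 2 h (log2 change 1.28 ± 0.13 SE, adjusted p = 1.8e-07). All 3 genes had hours that did not overlap, CrtR-b1 with its highest 2 h value in replicate 1. The NCED5 gene LOC100316877, of the cleavage step that limits synthesis, read 7.51, 9.68 and 9.61 FPKM at 0 h and 12.2, 11.5 and 10.4 FPKM at 2 h (log2 change 0.32 ± 0.13 SE, adjusted p = 0.033). That small rise did not pass without 0 h replicate 1 (adjusted p = 0.17), without 2 h replicate 1 (0.099) or replicate 2 (0.072), with a pseudocount of 0.1 (0.085) or in a fit of the compared groups alone (0.074). Zeaxanthin epoxidase (LOC544162) read 59, 61.2 and 64.2 FPKM at 0 h and 95.6, 51.6 and 54.9 FPKM at 2 h and did not pass (adjusted p = 0.72), but was higher by 0.51 after rescaling (adjusted p = 0.013). The abscisic-aldehyde oxidases LOC101250328 (log2 change -0.77) and LOC101256252 (-0.62), of the final step, were lower, the first not in the authors' deposited table (q = 0.061).

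Breakdown enzymes split in opposite directions. The hydroxylase LOC101249565, which inactivates abscisic acid and had the highest level of its family at 0 h, read 146, 179.6 and 115 FPKM at 0 h and 9.42, 3.34 and 5.85 FPKM at 2 h (log2 change -4.43 ± 0.33 SE, adjusted p = 6.2e-09). A second hydroxylase, LOC101254720, read 0.04, 4.05 and 0 FPKM at 0 h and 14.9, 32.7 and 14.1 FPKM at 2 h (log2 change 3.53 ± 0.51 SE, adjusted p = 1.1e-05). The dominant gene was thus low in all treated libraries, and the minor one was high in all of them, with 0 h replicate 2 the only untreated library above 1 FPKM. LOC101266767 read 0.64, 11.5 and 0.7 FPKM at 0 h and 7.08, 8.16 and 6.42 FPKM at 2 h (log2 change 1.33 ± 0.55 SE, adjusted p = 0.038). In that gene 0 h replicate 2 exceeded every 2 h library, and the call was lost without 0 h replicate 1 (adjusted p = 0.2) or 3 (0.19), without any 2 h library (0.06 to 0.09), with no filter (0.054) and in the compared groups alone (0.15). In the authors' deposited table neither rise passed, with q = 0.057 for LOC101254720 and 0.18 for LOC101266767.

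Receptor genes moved in both directions, and more of the phosphatases they block were higher than lower. Of 10 receptor genes of the PYR and PYL type, 2 were higher at 2 h, 4 were lower and 4 did not pass, or 20% and 40% beside 26.7% and 49.2% of all genes, and the counts after rescaling were 3 and 3. The PYR1-like gene LOC101267127 read 24.6, 27.1 and 27.6 FPKM at 0 h and 58.1, 58.3 and 61.2 FPKM at 2 h (log2 change 1.14 ± 0.13 SE, adjusted p = 1e-06). The PYL4 gene LOC101250944 read 25.4, 20.1 and 29.1 FPKM at 0 h and 7.11, 7.46 and 11.1 FPKM at 2 h (log2 change -1.45 ± 0.18 SE, adjusted p = 2.2e-06). The hours did not overlap in either, with LOC101267127 high and LOC101250944 low after treatment. The PYL9 genes LOC101246807 (-1.30) and LOC101258886 (-0.68) were lower as well, the last not after rescaling (adjusted p = 0.22) or in the authors' deposited table (q = 0.29). The rise of PYL8 (LOC101251256, 0.51, adjusted p = 0.026) was lost without 0 h replicate 1 (0.11) or without 2 h replicate 2 (0.051) or 3 (0.096).

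Of 12 tested genes in the clade A phosphatase list, 7 were higher at 2 h, 4 were lower and 1 did not pass (7 and 2 after rescaling), with a median log2 change of 1.22. The median was 0 with no filter and 1.62 with a filter of 5 FPKM. The shares were 58.3% higher and 33.3% lower, beside 26.7% and 49.2% of all genes. LOC101253664, a PP2C 75-type gene, read 0, 0.07 and 0 FPKM at 0 h and 37.3, 128 and 63.3 FPKM at 2 h (log2 change 6.06 ± 0.31 SE, adjusted p = 1.4e-10). The PP2C 50-type gene LOC101261835 read 19.5, 21.6 and 15.6 FPKM at 0 h and 206, 223 and 226 FPKM at 2 h (log2 change 3.47 ± 0.12 SE, adjusted p = 4.5e-12). LOC101248778, of PP2C 37 type, was the most abundant of them at 2 h and read 109.5, 124 and 109 FPKM at 0 h and 618, 652 and 627 FPKM at 2 h (log2 change 2.46 ± 0.11 SE, adjusted p = 3.3e-11). The rises of LOC101261835 and LOC101248778 were nearly equal in the 3 treated libraries, while LOC101253664 ranged more than 3-fold among them. PP2C-1, the ABI2 homolog, rose with a log2 change of 1.93, LOC101249794 of 2.36 and LOC101244003 of 1.30. The rise of LOC101267711 (1.14) was lost without 0 h replicate 3 (adjusted p = 0.061). Among the 4 members that were lower, LOC101265524 had log2 change -1.27 and LOC101260150 -1.09; the falls of LOC101253040 and LOC101258862 did not pass after rescaling (adjusted p = 0.093 and 0.13), and the last did not pass in the authors' deposited table (q = 0.21).

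Kinases and factors further down the pathway showed the same mixture. Of 6 SnRK2 kinases, 4 were higher at 2 h, 2 were lower and 0 did not pass (4 and 1 after rescaling). The SAPK3-type kinase LOC101250433 read 55.3, 46.4 and 60.0 FPKM at 0 h and 179, 203 and 156 FPKM at 2 h (log2 change 1.71 ± 0.16 SE, adjusted p = 9.4e-08). SRK2E (LOC101268620), the type that closes stomata in Arabidopsis, read 24.9, 22.9 and 24.5 FPKM at 0 h and 13.6, 12.2 and 12.7 FPKM at 2 h (log2 change -0.86 ± 0.12 SE, adjusted p = 8.3e-06), a fall that did not pass in the authors' deposited table (q = 0.077). Of 4 AREB and ABI5-type factors, 2 were higher at 2 h, 2 were lower and 0 did not pass (2 and 1 after rescaling). AREB read 29.4, 28.6 and 28.4 FPKM at 0 h and 263, 275 and 260.0 FPKM at 2 h (log2 change 3.16 ± 0.14 SE, adjusted p = 2.6e-11). The ABI5-like gene LOC101263766 read 9.65, 13.5 and 10.1 FPKM at 0 h and 87.3, 109.8 and 92.5 FPKM at 2 h (log2 change 3.02 ± 0.19 SE, adjusted p = 1.2e-09). Both were several-fold above every 0 h library in each treated library, whereas LOC101259896 was lower (-1.14).

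**Figure D3:**
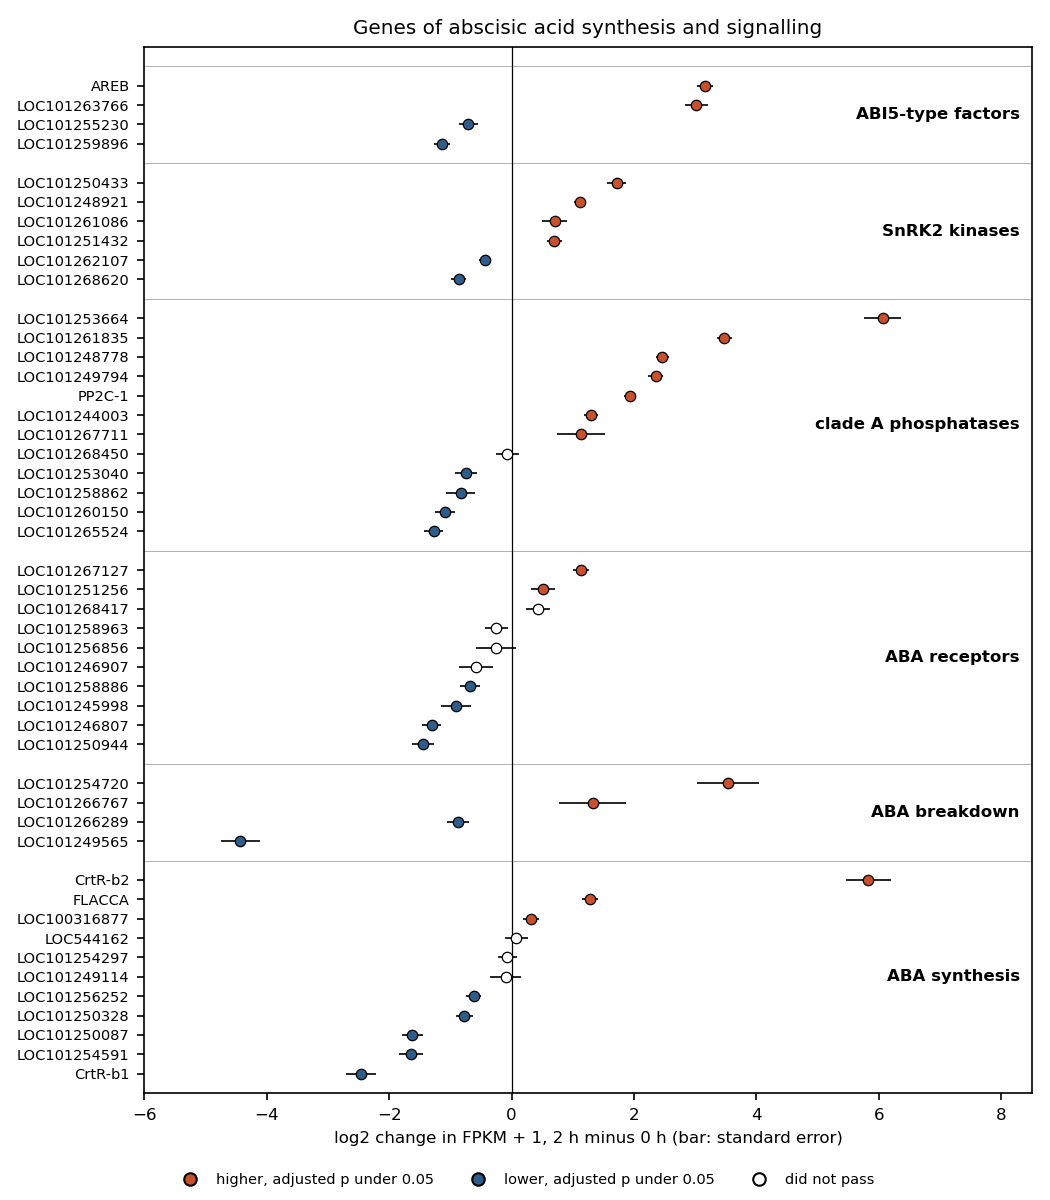
log2 change (2 h minus 0 h, FPKM + 1) with its standard error for every tested gene of abscisic acid synthesis, breakdown, perception and signalling, orange where higher, blue where lower and white where limma's adjusted p was 0.05 or more. The largest rise is the phosphatase LOC101253664 (6.06) and the largest fall the hydroxylase LOC101249565 (-4.43).

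LEA proteins and dehydrins rose in most tested members, and none that passed was lower. Of 18 tested genes of 28 in the table, 14 were higher at 2 h, 0 were lower and 4 did not pass, with a median log2 change of 2.70 against -0.37 over all genes and 15 and 0 after rescaling. Genes near the floor at 0 h could meet the filter through treated libraries alone, which leans the tested members toward rises. The median was 0.63 with no filter, 4.49 with a filter of 5 FPKM and 4.37 with a pseudocount of 0.1. The summed level of the list went from 412, 1344 and 510.3 to 20027, 30013 and 28623 FPKM, or from 0.0544%, 0.173% and 0.067% to 2.71%, 3.97% and 3.79% of each library's FPKM. Replicate 2 held the highest summed level before treatment, and the counts without it were 14 and 0. TAS14, a tomato dehydrin induced by abscisic acid and salt, read 2.15, 152 and 4.14 FPKM at 0 h and 1222, 2061 and 1394 FPKM at 2 h (log2 change 6.81 ± 0.93 SE, adjusted p = 6.3e-06). LE25 read 0.28, 57.6 and 0.54 FPKM at 0 h and 112, 169 and 108 FPKM at 2 h (log2 change 4.72 ± 0.96 SE, adjusted p = 0.00031). The LEA gene LOC100750252 read 0.52, 35.6 and 0.68 FPKM at 0 h and 512, 549 and 302 FPKM at 2 h (log2 change 6.60 ± 0.81 SE, adjusted p = 2e-06). Replicate 2 of 0 h stood far above the other 0 h libraries in all 3 genes, yet below every 2 h library. In the authors' deposited table the log2 change of LE25 was 2.45 with q = 0.1, so that call was lost there. Without 0 h replicate 2 the log2 changes were 8.56 for TAS14, 6.51 for LE25 and 8.11 for LOC100750252. The D-29 type gene LOC101250584 read 2.53, 36.7 and 4.05 FPKM at 0 h and 494, 441 and 366 FPKM at 2 h (log2 change 5.62 ± 0.56 SE, adjusted p = 1.8e-07). The PCC6-19-like gene LOC101268052 read 25.5, 19.5 and 16 FPKM at 0 h and 442, 468 and 314 FPKM at 2 h (log2 change 4.26 ± 0.34 SE, adjusted p = 1.6e-08), with no library of 0 h standing out. LOC101249151, a DC-8-like gene, was listed at 0 in all 0 h libraries and at 5.37, 5.63 and 4.66 FPKM at 2 h. The PCC27-04 gene LOC101248072 read 0.08, 56.1 and 0.66 FPKM at 0 h and 37.8, 65.5 and 60.9 FPKM at 2 h, where 0 h replicate 2 lay above 2 h replicate 1 and the call was lost in the compared groups alone (adjusted p = 0.055) and in the authors' deposited table (q = 0.35). The 4 genes that did not pass, LOC101243796, LOC101244907, LOC101249859 and LOC109119190, stayed at or below 1.1 FPKM in all 6 libraries.

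Enzymes of raffinose sugars, solutes that build up in dry tissue, rose almost throughout. Of 8 tested genes, 7 were higher at 2 h, 1 was lower and 0 did not pass (7 and 1 after rescaling), with a median log2 change of 1.86. GolS2, a galactinol synthase of the committing step, read 3.28, 4.8 and 2.77 FPKM at 0 h and 237, 369.6 and 222 FPKM at 2 h (log2 change 5.90 ± 0.23 SE, adjusted p = 1.2e-11). GolS-1 read 0.1, 0.2 and 0.05 FPKM at 0 h and 63.7, 87.8 and 44.7 FPKM at 2 h (log2 change 5.84 ± 0.33 SE, adjusted p = 4.1e-10). The galactosyltransferase LOC101257623, which turns galactinol and sucrose into raffinose, read 0.61, 4.13 and 1.07 FPKM at 0 h and 243, 316 and 207 FPKM at 2 h (log2 change 6.61 ± 0.39 SE, adjusted p = 5.7e-10). No treated library overlapped an untreated one, and replicate 2 was the highest of the 2 h group in all 3. LOC101266532, a further galactosyltransferase, was the member that fell (-1.06).

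Most proline enzymes did not rise. Of 6 tested genes, 1 was higher at 2 h, 3 were lower and 2 did not pass (2 and 3 after rescaling), or 16.7% and 50% beside 26.7% and 49.2% of all genes. The pyrroline-5-carboxylate synthase PRO2, of the first step of proline synthesis, read 36, 35.4 and 35 FPKM at 0 h and 37.4, 26.4 and 32.6 FPKM at 2 h and did not pass (log2 change -0.15 ± 0.11 SE, adjusted p = 0.2), but was higher by 0.27 after rescaling (adjusted p = 0.027). LOC101250107, of the same enzyme, was lower (-0.93). PDH, the dehydrogenase that degrades proline, read 43.1, 49.8 and 29 FPKM at 0 h and 5.17, 2.29 and 2.57 FPKM at 2 h (log2 change -3.29 ± 0.28 SE, adjusted p = 2.8e-08). The synthesis gene PRO2 overlapped between the hours, and the breakdown gene PDH was low in every treated library.

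Starch enzymes split by gene. Of 15 tested genes, 2 were higher at 2 h, 9 were lower and 4 did not pass (5 and 9 after rescaling). The beta-amylase BAM1 read 158, 173 and 162 FPKM at 0 h and 1572, 1652 and 1380.5 FPKM at 2 h (log2 change 3.21 ± 0.17 SE, adjusted p = 2.2e-10). LOC101259175, a chloroplast beta-amylase 3-like gene, read 419, 242 and 365 FPKM at 0 h and 24.3, 15.2 and 14.8 FPKM at 2 h (log2 change -4.17 ± 0.31 SE, adjusted p = 8.2e-09). BAM1 was thus far higher and LOC101259175 far lower in all treated libraries. In the trehalose list of 15 genes 8 were higher at 2 h, 3 were lower and 4 did not pass (10 and 3 after rescaling), led by the phosphatase LOC101263696 (2.74).

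The genes sos1, SOS2 and CBL10 of the SOS pathway, which pumps sodium out of cells, were lower in these leaves. Over the 11 tested core salt genes, 3 were higher at 2 h, 5 were lower and 3 did not pass (4 and 5 after rescaling), or 27.3% and 45.5%, close to the 26.7% and 49.2% of all genes. sos1, the plasma membrane sodium-proton antiporter, read 12.5, 13.2 and 11.8 FPKM at 0 h and 5.39, 3.49 and 3.58 FPKM at 2 h (log2 change -1.41 ± 0.13 SE, adjusted p = 7.6e-08). SOS2, the kinase that activates it, read 54.7, 39.8 and 53 FPKM at 0 h and 13.2, 13.5 and 14.1 FPKM at 2 h (log2 change -1.77 ± 0.11 SE, adjusted p = 1.6e-09). CBL10, the calcium sensor that recruits SOS2 in shoots, read 13.7, 15.5 and 14 FPKM at 0 h and 3.59, 2.26 and 2.11 FPKM at 2 h (log2 change -2.10 ± 0.16 SE, adjusted p = 6.9e-09). All 3 members of the pathway had every 2 h library below every 0 h library, and their falls also passed after rescaling. HKT1;2, which retrieves sodium from the xylem, read 6.06, 8.74 and 6.7 FPKM at 0 h and 7.37, 17.9 and 11.8 FPKM at 2 h (log2 change 0.64 ± 0.28 SE, adjusted p = 0.048). Its 2 h replicate 1 fell within the 0 h range, and the call was lost without 0 h replicate 1 (adjusted p = 0.14) or 3 (0.1), without 2 h replicate 2 (0.26) or 3 (0.093), with no filter (0.067), with a pseudocount of 0.1 (0.12) and in the compared groups alone (0.089).

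Potassium channels and proton pumps moved in both directions. Of 42 tested sodium and potassium transport genes, 11 were higher at 2 h, 23 were lower and 8 did not pass (13 and 19 after rescaling), or 26.2% and 54.8% beside 26.7% and 49.2% of all genes. The inward potassium channel LKT1 read 3.45, 3.48 and 2.84 FPKM at 0 h and 30.4, 49.8 and 43.6 FPKM at 2 h (log2 change 3.29 ± 0.17 SE, adjusted p = 1.5e-10). The AKT2/3-type channel LOC101251722, of phloem and mesophyll in Arabidopsis, read 31.1, 31.1 and 27.3 FPKM at 0 h and 2.03, 1.97 and 1.93 FPKM at 2 h (log2 change -3.37 ± 0.15 SE, adjusted p = 5.1e-11). Neither gene overlapped between the hours, and they moved in opposite directions. Of 36 tested proton pump genes, 12 were higher at 2 h, 13 were lower and 11 did not pass, which turned to 18 and 6 after rescaling and to 13 and 11 without 0 h replicate 2. The vacuolar ATPase subunit LOC101251546 rose (1.97), and the vacuolar pyrophosphatase vp1.1, which acidifies the vacuole, fell from between 212 and 224 FPKM to between 108 and 112.

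Water channels moved in both directions. Of 26 tested aquaporin genes, 9 were higher at 2 h, 9 were lower and 8 did not pass (10 and 7 after rescaling), or 34.6% each beside 26.7% and 49.2% of all genes. The summed level went from 3100.1, 4015 and 3642 to 7060.4, 8849 and 7075 FPKM. The plasma membrane aquaporin LOC101264605, of PIP1-2 type, read 68.2, 93.6 and 104 FPKM at 0 h and 3590.1, 4905 and 3829 FPKM at 2 h (log2 change 5.53 ± 0.28 SE, adjusted p = 1.5e-10). The tonoplast aquaporin LOC101255600, of TIP1-3 type, read 1.14, 2.04 and 1.93 FPKM at 0 h and 263, 394 and 242 FPKM at 2 h (log2 change 6.78 ± 0.21 SE, adjusted p = 1.7e-12). LOC101258434, of PIP2-1 type, read 763, 739.5 and 830.4 FPKM at 0 h and 22, 19.9 and 13.7 FPKM at 2 h (log2 change -5.34 ± 0.27 SE, adjusted p = 1.2e-10). The first pair stood high and the last gene low in all treated libraries, without overlap. LOC100736527 (-4.73) and LOC101264708 (-4.32), both of PIP type, fell as well.

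Calcium sensors rose more often than they fell. Of 68 tested genes, 36 were higher at 2 h, 16 were lower and 16 did not pass (42 and 12 after rescaling), with a median log2 change of 0.56. The median was 0.138 with no filter and 0.492 to 0.745 without single libraries. The shares were 52.9% higher and 23.5% lower, beside 26.7% and 49.2% of all genes. The calcium-binding protein LOC101265138, of CML19 type, read 1.18, 3.66 and 1.75 FPKM at 0 h and 258, 427 and 329 FPKM at 2 h (log2 change 6.77 ± 0.40 SE, adjusted p = 5.6e-10). The calcium-dependent kinase LOC101260391 read 0.64, 1.45 and 0.67 FPKM at 0 h and 71.5, 120.3 and 98.4 FPKM at 2 h (log2 change 5.66 ± 0.23 SE, adjusted p = 2e-11). Both were near the floor in every untreated library and far above it in every treated one. CML24 (LOC101256237) fell, with log2 change -1.82. In the list of sensor proteins and kinases of the CBL and CIPK type (33 tested), 12 were higher at 2 h, 11 were lower and 10 did not pass (15 and 8 after rescaling), and CIPK11 read 4.37, 5.65 and 5.81 FPKM at 0 h and 97.1, 179 and 144 FPKM at 2 h (log2 change 4.45 ± 0.36 SE, adjusted p = 2e-08). Of 46 genes of mitogen-activated kinase cascades, 22 were higher at 2 h, 13 were lower and 11 did not pass (27 and 8 after rescaling), with LOC101254612, a cascade entry kinase, at log2 change 5.30 and MAPK4 at 3.56.

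Heat shock genes were mostly higher in leaves whose labels name no heat treatment. Of 43 tested heat shock proteins, 26 were higher at 2 h, 9 were lower and 8 did not pass (29 and 5 after rescaling), with a median log2 change of 0.80. The small chaperone HSP17.4 read 0, 0.21 and 0.1 FPKM at 0 h and 68.5, 56.2 and 59.2 FPKM at 2 h (log2 change 5.82 ± 0.18 SE, adjusted p = 1.7e-12). HSP90 read 0.33, 1.03 and 0.61 FPKM at 0 h and 65, 104 and 101 FPKM at 2 h (log2 change 5.77 ± 0.22 SE, adjusted p = 9.8e-12). HSC80, the abundant constitutive relative, read 1708, 1272 and 1523 FPKM at 0 h and 983, 609 and 771 FPKM at 2 h (log2 change -0.95 ± 0.17 SE, adjusted p = 0.00012). The inducible genes rose from near 0 in every treated library while the constitutive one stayed the most abundant of the 3 and fell. Of 21 heat stress factors, 11 were higher at 2 h, 4 were lower and 6 did not pass (13 and 2 after rescaling). The B-2b factor LOC101267632 read 1.52, 2.53 and 1.9 FPKM at 0 h and 126, 115 and 111 FPKM at 2 h (log2 change 5.32 ± 0.32 SE, adjusted p = 6.7e-10). HsfA1a, the master factor of the heat response in tomato, read 13.7, 13 and 12.3 FPKM at 0 h and 10.4, 9.55 and 9.65 FPKM at 2 h (log2 change -0.37 ± 0.10 SE, adjusted p = 0.0026), a fall that became a change of 0.04 (adjusted p = 0.77) after rescaling. The fall of the A-5 factor LOC101258637 (-0.68) was lost after rescaling (adjusted p = 0.34), without 0 h replicate 1 (0.05) and without 2 h replicate 2 (0.064). In the authors' deposited table the falls of HSC80 (q = 0.068), HsfA1a (q = 0.78) and LOC101258637 (q = 0.37) did not pass.

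Antioxidant enzymes were split much as all genes were. Of 40 tested genes, 8 were higher at 2 h, 22 were lower and 10 did not pass, or 20% and 55% beside 26.7% and 49.2% of all genes, and the counts after rescaling were 13 and 16. The cytosolic superoxide dismutase SODCC.1 read 61.8, 137 and 48.9 FPKM at 0 h and 527, 586 and 642 FPKM at 2 h (log2 change 2.95 ± 0.29 SE, adjusted p = 1.5e-07). Catalase 2 (CAT2), of the peroxisomes, read 1813, 1029 and 1729.9 FPKM at 0 h and 481, 328 and 364 FPKM at 2 h (log2 change -1.94 ± 0.21 SE, adjusted p = 5.2e-07). The cytosolic gene was high and the peroxisomal one low in all treated libraries. The fall of the chloroplast enzyme SODCP.2 (-2.27) was lost without 0 h replicate 2 (adjusted p = 0.058). Of 39 glutathione S-transferases, which attach glutathione to toxic products, 24 were higher at 2 h, 8 were lower and 7 did not pass (26 and 8 after rescaling), with LOC101265571 at 14.8, 16.8 and 16 FPKM at 0 h and 182, 158 and 187 FPKM at 2 h (log2 change 3.39 ± 0.31 SE, adjusted p = 7e-08). The respiratory bypass showed a switch between genes: beside the alternative oxidases, the external dehydrogenase LOC101252838 read 4.98, 6.26 and 4.01 FPKM at 0 h and 367, 379 and 381 FPKM at 2 h (log2 change 5.97 ± 0.27 SE, adjusted p = 4.2e-11). The internal dehydrogenase LOC101266519 read 67.4, 48.4 and 64.8 FPKM at 0 h and 3.9, 1.09 and 1.68 FPKM at 2 h (log2 change -4.33 ± 0.33 SE, adjusted p = 1e-08). Alternative oxidase 1a (LOC543824) rose with log2 change 3.50.

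Several jasmonate synthesis genes and most JAZ repressors rose, while an enzyme that activates the hormone fell. Allene oxide synthase (aos), which opens the jasmonate branch of lipid oxidation, read 4.16, 3.03 and 2.29 FPKM at 0 h and 799, 588 and 571 FPKM at 2 h (log2 change 7.30 ± 0.38 SE, adjusted p = 1.5e-10). AOC, the cyclase of the next step, read 32.8, 50 and 39.4 FPKM at 0 h and 2941, 3093 and 2650.4 FPKM at 2 h (log2 change 6.13 ± 0.28 SE, adjusted p = 4.1e-11). LOC101251682, a JAR1-type enzyme that joins jasmonate to isoleucine, read 73, 68.4 and 71.3 FPKM at 0 h and 4.54, 1.56 and 2.48 FPKM at 2 h (log2 change -4.29 ± 0.29 SE, adjusted p = 2.5e-09). The groups were wide apart in all 3, and AOC reached the highest treated level of the 3. Of 23 tested genes of the list, 10 were higher at 2 h, 6 were lower and 7 did not pass (13 and 6 after rescaling). Of 11 JAZ repressors, which hold jasmonate targets in check, 8 were higher at 2 h, 3 were lower and 0 did not pass (8 and 3 after rescaling), with a median log2 change of 2.92. JAZ1 (LOC100134911) read 22.2, 18.7 and 13.5 FPKM at 0 h and 749, 1058 and 940.3 FPKM at 2 h (log2 change 5.59 ± 0.37 SE, adjusted p = 2.1e-09). TIFY 5A-like LOC101253212 (5.94) and LOC101252609 (5.82) rose and TIFY 4B (LOC101265858, -1.84) fell.

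Proteinase inhibitors, which jasmonate switches on in wounded tomato leaves, were less uniform. Of 25 tested genes, 8 were higher at 2 h, 3 were lower and 14 did not pass (8 and 3 after rescaling). The Kunitz-type inhibitor LOC101244562 read 3.03, 34.3 and 1.93 FPKM at 0 h and 358, 222 and 265 FPKM at 2 h (log2 change 5.21 ± 0.68 SE, adjusted p = 4e-06). The wound-induced inhibitor LOC101266868 read 0, 80.4 and 0 FPKM at 0 h and 40.8, 23.4 and 17.4 FPKM at 2 h (log2 change 2.62 ± 1.11 SE, adjusted p = 0.043). Replicate 2 of 0 h was the highest untreated library in both and exceeded every treated library in LOC101266868, whose call was lost without any one of 5 libraries (adjusted p from 0.055 to 0.23), with the replicate block (0.051), with no filter (0.061), in the compared groups alone (0.19) and in the authors' deposited table (q = 0.88). ER1, an ethylene-responsive inhibitor, fell from 6.17, 67.1 and 5.09 FPKM to 1.17, 2.08 and 2.21 FPKM.

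Ethylene synthesis genes moved in both directions. ACO1, an oxidase of the last step, read 28.6, 36 and 27.3 FPKM at 0 h and 2901, 2545 and 2954 FPKM at 2 h (log2 change 6.47 ± 0.23 SE, adjusted p = 5.6e-12). ACS1A, a synthase of the step before, read 44.2, 30.4 and 35.7 FPKM at 0 h and 133, 174 and 131 FPKM at 2 h (log2 change 1.97 ± 0.16 SE, adjusted p = 1.6e-08). LOC100125909, the most abundant oxidase before treatment, read 1359, 843 and 1292 FPKM at 0 h and 462, 354 and 482 FPKM at 2 h (log2 change -1.41 ± 0.24 SE, adjusted p = 6.4e-05). ACO1 went from the minor to the major oxidase of this pair in all treated libraries. Over the 13 tested genes of the list, 5 were higher at 2 h, 2 were lower and 6 did not pass (6 and 1 after rescaling). Among 18 genes of perception and signalling, 5 were higher at 2 h, 8 were lower and 5 did not pass, which turned to 8 and 4 after rescaling. These shares, 27.8% and 44.4%, were near the 26.7% and 49.2% over all genes. The receptor ETR4 was higher (1.33) and the receptor ETR5 lower (-1.15). Of 79 salicylate and defence genes, 20 were higher at 2 h, 27 were lower and 32 did not pass, which turned to 29 and 21 after rescaling. The defence shares were 25.3% and 34.2%, beside 26.7% and 49.2% of all genes. The chitinase CHI14 rose (5.31) and the PR-1-like gene LOC101267821 fell (-3.54).

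Auxin and cytokinin genes fell more often than they rose, with 61.1% and 64.7% lower beside 49.2% of all genes, while gibberellin genes were split. Of 90 auxin genes, 15 were higher at 2 h, 55 were lower and 20 did not pass (21 and 47 after rescaling), with a median log2 change of -0.89. PIN4, an auxin exporter, read 268, 223 and 240.1 FPKM at 0 h and 10.9, 7.68 and 7.46 FPKM at 2 h (log2 change -4.67 ± 0.20 SE, adjusted p = 3.2e-11). Small auxin-induced genes of 15A type were low too, LOC104645435 at log2 change -3.85 and LOC101249503 at -3.97. In gibberellin metabolism 10 were higher at 2 h, 8 were lower and 5 did not pass of 23 tested (10 and 7 after rescaling). Whether the list split by function was not tested. The oxidase 20ox-1, of a late step of gibberellin synthesis, read 8.85, 15.3 and 11.4 FPKM at 0 h and 0.04, 0 and 0.08 FPKM at 2 h (log2 change -3.60 ± 0.21 SE, adjusted p = 6e-10). GA2ox3, which inactivates gibberellin, read 5.2, 8.54 and 5.69 FPKM at 0 h and 127, 215 and 156 FPKM at 2 h (log2 change 4.48 ± 0.38 SE, adjusted p = 2.7e-08). GAI, the DELLA repressor of gibberellin responses, read 149, 132 and 149 FPKM at 0 h and 11.7, 7.13 and 8.79 FPKM at 2 h (log2 change -3.84 ± 0.20 SE, adjusted p = 1.4e-10). The synthesis gene and the repressor were low and the inactivating gene was high in all 3 treated libraries.

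Cytokinin response regulators of type A, ORR9 (LOC101248058) and ARR5 (LOC101244285), fell by 3.60 and 2.67 on the log2 scale. Over 34 tested cytokinin genes 8 were higher at 2 h, 22 were lower and 4 did not pass (9 and 20 after rescaling); the list holds clock-type pseudo-response regulators such as LOC101249224, which rose (3.59). The brassinosteroid-regulated wall enzyme BRU1 (LOC543637) read 103, 272 and 133 FPKM at 0 h and 2.15, 1.53 and 1.21 FPKM at 2 h (log2 change -5.91 ± 0.39 SE, adjusted p = 2.1e-09). Of 107 wall-loosening genes, 23 were higher at 2 h, 56 were lower and 28 did not pass (28 and 48 after rescaling), or 21.5% and 52.3% beside 26.7% and 49.2% of all genes. The fasciclin-like arabinogalactan protein LOC101249179 read 54.1, 55.7 and 52.9 FPKM at 0 h and 3.58, 1.93 and 1.5 FPKM at 2 h (log2 change -4.10 ± 0.31 SE, adjusted p = 7.9e-09). Against that direction the pectate lyase LOC101263458 rose (4.74), as did the cellulose synthase LOC101248382 (2.30).

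Photosynthesis genes were lower in nearly every member. Of 79 tested photosystem and light-harvesting genes, 2 were higher at 2 h, 67 were lower and 10 did not pass (2 and 64 after rescaling), with a median log2 change of -1.99. Their summed level went from 68174, 65898 and 70110.0 to 36606, 13720.0 and 21697 FPKM, or from 9.01%, 8.46% and 9.21% to 4.96%, 1.81% and 2.87% of each library. Replicate 1 of 2 h kept more than the other treated libraries, and without it the counts were 1 and 69. These are bulk leaf samples, in which fewer cells of a type and less RNA per cell cannot be told apart. PSBR, of photosystem II, read 10321, 7854 and 9822 FPKM at 0 h and 3173, 2721 and 3140.4 FPKM at 2 h (log2 change -1.62 ± 0.20 SE, adjusted p = 1.7e-06). SEND33, a chloroplast ferredoxin, read 3964, 4622 and 4257 FPKM at 0 h and 1575, 755 and 957 FPKM at 2 h (log2 change -2.03 ± 0.35 SE, adjusted p = 6.2e-05). The light-harvesting gene LOC101265617 read 339, 382 and 367 FPKM at 0 h and 87.5, 10.4 and 30.6 FPKM at 2 h (log2 change -3.52 ± 0.85 SE, adjusted p = 0.0014), with replicate 1 the highest and replicate 2 the lowest treated library. Against the list, the chlorophyll-binding gene LOC101267774 read 398, 381 and 494 FPKM at 0 h and 2740.0, 1223 and 1816 FPKM at 2 h (log2 change 2.11 ± 0.48 SE, adjusted p = 0.00094). Cab-1B, of the same kind, read 541, 704 and 701 FPKM at 0 h and 2804, 1041 and 1708 FPKM at 2 h (log2 change 1.41 ± 0.57 SE, adjusted p = 0.034). Both were highest in 2 h replicate 1, and the Cab-1B call was lost without any one of 5 libraries (adjusted p from 0.053 to 0.14) and with the replicate block (0.056). Chlorophyll-binding genes share long stretches of sequence, so reads may be split among them.

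Carbon fixation and pigment synthesis went the same way. Of 21 Calvin cycle genes, 0 were higher at 2 h, 17 were lower and 4 did not pass (3 and 13 after rescaling). Rubisco activase (LOC101249777), which keeps Rubisco active, read 8804, 6258 and 8717 FPKM at 0 h and 2112, 1009.9 and 1316 FPKM at 2 h (log2 change -2.47 ± 0.44 SE, adjusted p = 8.9e-05). The Rubisco small subunit Rbcs-3B read 11484, 11298 and 11624 FPKM at 0 h and 7983, 3445 and 4812 FPKM at 2 h (log2 change -1.17 ± 0.29 SE, adjusted p = 0.0018), a call lost in the compared groups alone (adjusted p = 0.057). The plastid dehydrogenase LOC101249445, which uses the reducing power of light, read 939, 662 and 976 FPKM at 0 h and 113, 59.9 and 74.4 FPKM at 2 h (log2 change -3.39 ± 0.42 SE, adjusted p = 2.3e-06). Replicate 1 was the highest of the treated libraries in each of these. Of 24 chlorophyll synthesis genes, 1 was higher at 2 h, 23 were lower and 0 did not pass (1 and 22 after rescaling), with a median log2 change of -1.97. Chlorophyllide a oxygenase (LOC101244441), which makes chlorophyll b, read 242, 196 and 230.0 FPKM at 0 h and 28.8, 19.9 and 20.5 FPKM at 2 h (log2 change -3.23 ± 0.21 SE, adjusted p = 1.6e-09). In chlorophyll breakdown 5 were higher at 2 h, 7 were lower and 2 did not pass of 14 tested (5 and 6 after rescaling). The breakdown shares were 35.7% and 50%, beside 26.7% and 49.2% of all genes. The STAY-GREEN-like gene LOC101258237, of a family that starts the dismantling of chlorophyll, read 0.06, 1.6 and 0 FPKM at 0 h and 44.6, 52.9 and 48 FPKM at 2 h (log2 change 5.14 ± 0.31 SE, adjusted p = 8.8e-10). NYC1 (LOC101258872), which converts chlorophyll b, rose as well (1.89).

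Ribosomal proteins separated by compartment. Of 42 plastid-type genes, 0 were higher at 2 h, 40 were lower and 2 did not pass (0 and 40 after rescaling), with a median log2 change of -2.05. The plastid ribosomal gene LOC101258952 read 117, 125 and 126 FPKM at 0 h and 7.19, 3.83 and 4.8 FPKM at 2 h (log2 change -4.34 ± 0.24 SE, adjusted p = 3e-10). Every treated library was below every untreated one in it. Of 208 cytosolic genes, 33 were higher at 2 h, 63 were lower and 112 did not pass, but this direction turned to 107 and 18 after rescaling, to 66 and 40 without 0 h replicate 2 and to 50 and 43 without 2 h replicate 1. Their median log2 change was -0.06, and they summed from 28656, 42407 and 29352 to 26869, 33896 and 32914 FPKM. Copies of ribosomal protein genes are nearly identical in places, so their single values are uncertain. The proteasome list of 46 genes turned in the same way, from 8 higher and 19 lower to 22 and 6.

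**Figure D4:**
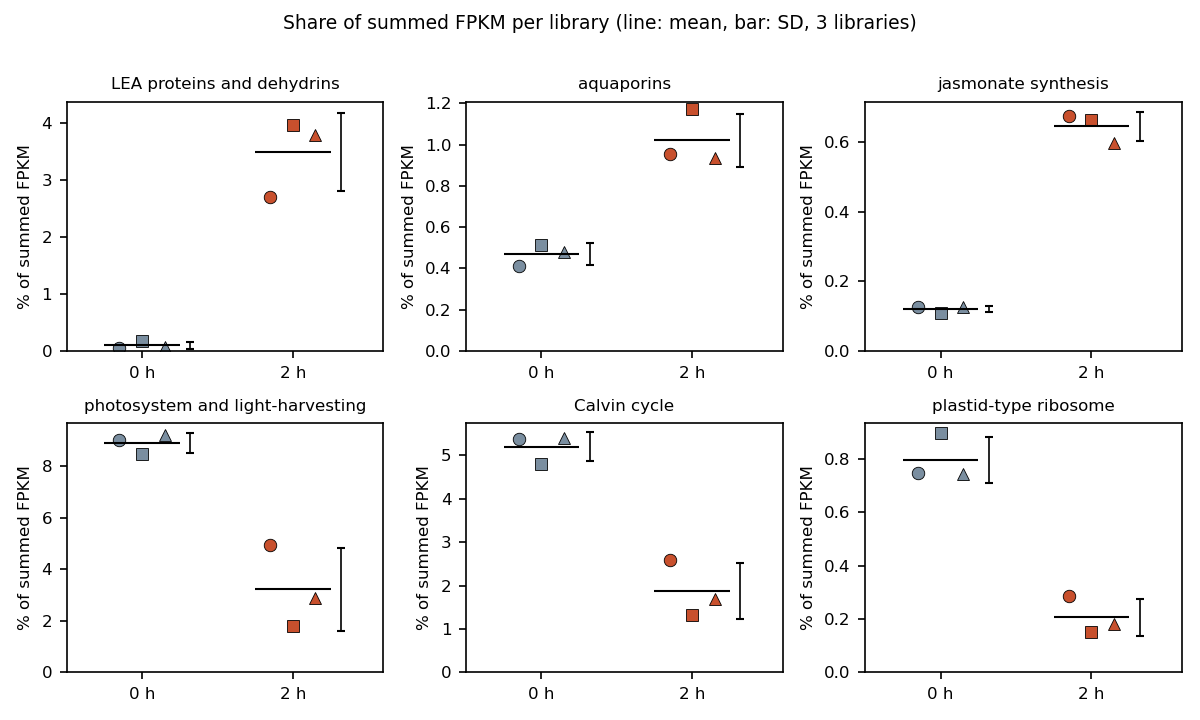
Share of each library's summed FPKM taken by 6 gene lists, in percent, for the 3 libraries of 0 h (grey) and of 2 h (orange), with the mean (line) and SD (bar). LEA proteins rose to between 2.71% and 3.97% while photosystem genes fell to between 1.81% and 4.96%, with 2 h replicate 1 (circle) nearest to 0 h in LEA proteins and in the 3 lists of the lower row.

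Clock genes cycle with the time of day, so the hour and the salt cannot be told apart in them. The evening gene LOC101258346, a GIGANTEA-like gene, read 0.11, 0.78 and 0.17 FPKM at 0 h and 54.2, 88.7 and 60.8 FPKM at 2 h (log2 change 5.67 ± 0.18 SE, adjusted p = 1.7e-12). The pseudo-response regulator LOC101262866, of APRR9 type, read 0.85, 1.31 and 0.59 FPKM at 0 h and 41.8, 52.5 and 43 FPKM at 2 h (log2 change 4.62 ± 0.17 SE, adjusted p = 6.2e-12). It entered the evening list by its gene description, and its own hour of peak was not examined. LOC101259163, of APRR1 type, read 11.2, 11.1 and 9.81 FPKM at 0 h and 154, 215 and 171 FPKM at 2 h (log2 change 3.94 ± 0.12 SE, adjusted p = 1.7e-12). All 3 stood several-fold higher in every 2 h library. The morning factor LHY (LOC101261662) read 404, 444 and 423 FPKM at 0 h and 456, 405 and 413 FPKM at 2 h and did not pass (adjusted p = 0.99), but was higher by 0.44 after rescaling (adjusted p = 0.034). REVEILLE 1 (LOC101261079) fell (-1.47) and the LNK1 genes LOC101244909 (4.11) and LOC101266410 (3.60) rose. Over the evening list of 17 genes, 7 were higher at 2 h, 6 were lower and 4 did not pass (8 and 4 after rescaling). That made 41.2% higher and 35.3% lower, beside 26.7% and 49.2% of all genes. Over the 7 morning genes, 2 were higher at 2 h, 3 were lower and 2 did not pass, which turned to 3 and 2.

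Phenylpropanoid enzymes, which feed lignin and phenolic amides, rose more often than they fell. Of 62 tested genes, 35 were higher at 2 h, 14 were lower and 13 did not pass (38 and 13 after rescaling), with a median log2 change of 0.83. THT1-3, which makes hydroxycinnamic amides of tyramine, read 3.78, 18.1 and 2.73 FPKM at 0 h and 249, 326 and 310.0 FPKM at 2 h (log2 change 5.40 ± 0.39 SE, adjusted p = 5.7e-09). The reductase LOC101265652, of cinnamoyl-CoA reductase type, read 5.79, 7.27 and 5.81 FPKM at 0 h and 211, 256 and 271 FPKM at 2 h (log2 change 5.08 ± 0.25 SE, adjusted p = 1.2e-10). Replicate 2 was the highest 0 h library for both, by a wide margin for THT1-3. Flavonoid and anthocyanin genes were split, with 11 higher, 15 lower and 8 not passing of 34 (12 and 12 after rescaling), and the anthocyanidin glucosyltransferase LOC101258278 fell (-3.84). Among 98 wax and cutin genes 38 were higher at 2 h, 33 were lower and 27 did not pass (44 and 28 after rescaling), with the lipid-transfer protein LOC101254307 at 0.2, 0.1 and 0.19 FPKM at 0 h and 80.2, 169.8 and 116 FPKM at 2 h (log2 change 6.66 ± 0.30 SE, adjusted p = 3.7e-11).

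Genes of sugar and nitrogen transport moved in both directions, with shares near those over all genes. The hexose transporter ht1 rose (2.88) and the sugar transporter STP11 fell (-4.70). Of 43 sugar transporters, 12 were higher, 18 were lower and 13 did not pass (15 and 17 after rescaling), or 27.9% and 41.9% beside 26.7% and 49.2% of all genes. The ammonium transporter LOC101246876 read 0.79, 1.61 and 0.75 FPKM at 0 h and 82.7, 66.3 and 82.1 FPKM at 2 h (log2 change 5.27 ± 0.33 SE, adjusted p = 1.3e-09). AMT1-3, a high-affinity ammonium transporter, read 42.6, 29.2 and 41.9 FPKM at 0 h and 0.83, 0.17 and 0.07 FPKM at 2 h (log2 change -4.86 ± 0.30 SE, adjusted p = 9.3e-10). LOC101246876 was thus the higher of this pair in all treated libraries and AMT1-3 in all untreated ones. Of 63 nitrogen genes, 19 were higher at 2 h, 31 were lower and 13 did not pass (23 and 25 after rescaling), or 30.2% and 49.2%.

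Transcription factor families differed in how evenly they were split. NAC1 read 76.2, 58.8 and 49.6 FPKM at 0 h and 1019, 1094 and 964 FPKM at 2 h (log2 change 4.06 ± 0.34 SE, adjusted p = 2.8e-08), and of 48 NAC genes 18 were higher at 2 h, 9 were lower and 21 did not pass (28 and 6 after rescaling). The homeobox gene LOC101262661, of ATHB-12 type, an abscisic acid target in Arabidopsis, read 6.48, 14.7 and 3.33 FPKM at 0 h and 789.6, 924 and 869 FPKM at 2 h (log2 change 6.75 ± 0.33 SE, adjusted p = 9.6e-11). LOC101263368, of ATHB-6 type, read 229.9, 261 and 212 FPKM at 0 h and 7.21, 4.83 and 7.61 FPKM at 2 h (log2 change -4.98 ± 0.31 SE, adjusted p = 1.2e-09). Relatives of one family were thus wide apart in opposite directions. Of 81 homeobox genes, 25 were higher at 2 h, 36 were lower and 20 did not pass (29 and 27 after rescaling), or 30.9% and 44.4% beside 26.7% and 49.2% of all genes. WRKY 40 (LOC101243805) read 2.39, 2.35 and 0.46 FPKM at 0 h and 311, 144 and 177 FPKM at 2 h (log2 change 6.30 ± 0.49 SE, adjusted p = 1.1e-08). Of 52 WRKY genes, 20 were higher at 2 h, 18 were lower and 14 did not pass (24 and 11 after rescaling). Of 103 AP2/ERF genes, 40 were higher at 2 h, 42 were lower and 21 did not pass, which turned to 49 and 30 after rescaling and to 41 and 37 without 0 h replicate 2. Of 93 bHLH genes, 19 were higher at 2 h, 54 were lower and 20 did not pass (28 and 48 after rescaling), with LOC101266736, of bHLH35 type, against the family at log2 change 5.21. MYB1R1 (LOC101267581) read 112, 70.3 and 87.3 FPKM at 0 h and 0.34, 0.05 and 0.09 FPKM at 2 h (log2 change -6.27 ± 0.21 SE, adjusted p = 2.2e-12). MYB108-like LOC101266622 rose (6.79), and of 56 MYB genes 23 were higher at 2 h, 24 were lower and 9 did not pass, which turned to 26 and 18 after rescaling. Beside 26.7% and 49.2% of all genes, the shares higher and lower were 38.5% and 34.6% in WRKY and 38.8% and 40.8% in AP2/ERF genes. They were 41.1% and 42.9% in MYB, 20.4% and 58.1% in bHLH and 37.5% and 18.75% in NAC genes. Histone H1 genes fell deeply within the chromatin and cell cycle list, with H1 at 110.2, 168 and 89.1 FPKM at 0 h and 4.78, 5.31 and 5.22 FPKM at 2 h (log2 change -4.29 ± 0.32 SE, adjusted p = 7.2e-09), and 17 were higher at 2 h, 38 were lower and 25 did not pass of its 80 genes (24 and 29 after rescaling). The share of this list that was lower, 47.5%, was near the 49.2% over all genes, and 21.25% were higher. Of 320 receptor-like kinases, 85 were higher at 2 h, 155 were lower and 80 did not pass (105 and 136 after rescaling), close to the shares over all genes on the deposited scale.

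The remaining lists held no strong majority of rises. Of 34 class III peroxidases, 13 were higher at 2 h, 12 were lower and 9 did not pass (15 and 10 after rescaling). Of 36 cellulose synthesis genes, 14 were higher at 2 h, 11 were lower and 11 did not pass (17 and 11 after rescaling). In the brassinosteroid list 3 were higher at 2 h, 9 were lower and 4 did not pass of 16 (4 and 7 after rescaling), and in alternative respiration 6 were higher at 2 h, 5 were lower and 2 did not pass of 13 (6 and 4 after rescaling). Zinc finger factors gave 23 higher, 61 lower and 29 not passing of 113 (35 and 55 after rescaling), or 20.4% and 54% beside 26.7% and 49.2% of all genes. Autophagy genes turned from 5 higher and 8 lower to 11 and 4 after rescaling, and stress ubiquitin ligases from 50 higher and 53 lower to 54 and 45.

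Markers of other cell types moved in part with the hours, beside 26.7% higher and 49.2% lower over all genes. Of 41 guard cell markers 21 were tested, 6 were higher and 8 lower (8 and 7 after rescaling, which turns the majority), and their summed level went from 356, 375 and 379 to 235, 236 and 208 FPKM. Of 17 phloem and xylem markers 13 were tested, 2 were higher and 6 lower (2 and 5 after rescaling), and their sum went from 193, 287 and 219 to 155, 167 and 145 FPKM. Of 43 trichome markers 16 were tested, 7 were higher and 4 lower (7 and 4 after rescaling), and the sum went from 51.8, 96.7 and 64.6 to 108, 84 and 83.5 FPKM. The flower and anther list gave 6 higher and 10 lower of 21 tested (7 and 7 after rescaling) and the seed list 4 and 2 of 13 (6 and 2 after rescaling), with seed markers summing highest before treatment in 0 h replicate 2 (from 21.1, 62.2 and 27.1 to 38.9, 54.7 and 43 FPKM). Of 4 fruit markers 2 were tested and 1 was lower on both scales, with sums from 302, 229 and 286 to 76.1, 53.5 and 51.5 FPKM. The part of these cell types in the results was not tested.

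Micro-TOM went through much the same change at 2 h, so the difference between the responses was tested directly. In Micro-TOM 5055 genes (27.5%) were higher and 8734 (47.5%) lower. The materials shared 4210 rises, 85.6% of those in Micro-TOM-EX and 83.3% of those in Micro-TOM, and 7928 falls, 87.6% and 90.8%. Across genes the changes of the materials correlated at 0.939, a description over genes that are not independent. The difference of the changes passed for 1194 genes (6.49%), more positive in Micro-TOM-EX for 505 (2.74%) and more negative for 689 (3.74%). Without Micro-TOM-EX 2 h replicate 3 the count was 693, and without Micro-TOM 2 h replicate 1 it was 727. Among the 101 genes called in opposite directions in the materials, the difference passed in 96.

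Among genes with a descriptive name and a mean of at least 5 FPKM in some group, the STAY-GREEN-like LOC101258237 had the largest difference. Its Micro-TOM-EX values were given above, and in Micro-TOM it read 0, 0 and 0 FPKM at 0 h and 0.43, 0.49 and 0.37 FPKM at 2 h (difference of log2 changes 4.62 ± 0.44 SE, adjusted p = 2.3e-05). LOC101244810, annotated as a deacetoxyvindoline hydroxylase, read 0.28, 0.7 and 0.55 FPKM at 0 h and 20.8, 44.6 and 35.1 FPKM at 2 h in Micro-TOM-EX and 0, 0.09 and 0.05 FPKM at 0 h and 0.37, 0.42 and 0.52 FPKM at 2 h in Micro-TOM (difference of log2 changes 4.0 ± 0.29 SE, adjusted p = 1.1e-06). Both stayed near the floor in every Micro-TOM library, treated or not, and were high in every treated Micro-TOM-EX library. The cellulose synthase-like gene LOC101268453, of type E6, read 9.18, 8.72 and 7.87 FPKM at 0 h and 51.4, 42.1 and 39.9 FPKM at 2 h in Micro-TOM-EX and 5.63, 5.85 and 4.79 FPKM at 0 h and 0.69, 0.63 and 0.83 FPKM at 2 h in Micro-TOM (difference of log2 changes 4.14 ± 0.20 SE, adjusted p = 2e-08). LOC101247596, of type D3, read 7.29, 10.2 and 4.7 FPKM at 0 h and 24.8, 33 and 28.4 FPKM at 2 h in Micro-TOM-EX and 36.3, 236 and 102 FPKM at 0 h and 17.7, 18.1 and 21.3 FPKM at 2 h in Micro-TOM (difference of log2 changes 4.15 ± 0.61 SE, adjusted p = 0.00086). Both wall genes read higher at 2 h than at 0 h in Micro-TOM-EX and lower at 2 h in Micro-TOM. The 0 h level of LOC101247596 was above every Micro-TOM-EX value in each Micro-TOM library and was widely spread there.

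On the other side, 3 genes rose less in Micro-TOM-EX, and a further gene fell there without a change that passed in Micro-TOM. The receptor kinase LOC101268564 read 0, 0.1 and 0.02 FPKM at 0 h and 3.66, 8.62 and 2.83 FPKM at 2 h in Micro-TOM-EX and 0, 0.05 and 0 FPKM at 0 h and 71.6, 40.3 and 53.8 FPKM at 2 h in Micro-TOM (difference of log2 changes -3.33 ± 0.45 SE, adjusted p = 0.00041). The MADS-box gene LOC101244319 read 0.44, 0.22 and 0 FPKM at 0 h and 1.32, 3.51 and 1.22 FPKM at 2 h in Micro-TOM-EX and 0.11, 0.21 and 0.32 FPKM at 0 h and 31.6, 17.5 and 18.1 FPKM at 2 h in Micro-TOM (difference of log2 changes -2.98 ± 0.40 SE, adjusted p = 0.00041). Both rose in both materials, and every Micro-TOM library at 2 h lay above every Micro-TOM-EX library at 2 h. The copper protein LOC543645, a dicyanin, read 16.6, 37 and 25.8 FPKM at 0 h and 85.3, 368 and 175 FPKM at 2 h in Micro-TOM-EX and 3.55, 12.9 and 7.54 FPKM at 0 h and 344, 612 and 392 FPKM at 2 h in Micro-TOM (difference of log2 changes -2.98 ± 0.66 SE, adjusted p = 0.012). LOC101245991, an ACC oxidase homolog, read 6.58, 9.84 and 6.36 FPKM at 0 h and 0.31, 0.52 and 0.38 FPKM at 2 h in Micro-TOM-EX and 4.61, 3.22 and 4.53 FPKM at 0 h and 11.1, 3.98 and 4.44 FPKM at 2 h in Micro-TOM (difference of log2 changes -3.04 ± 0.49 SE, adjusted p = 0.0017). It fell in Micro-TOM-EX, while in Micro-TOM the hours overlapped and the change did not pass (adjusted p = 0.26). All 8 differences passed in every fit without one library and under every other setting tried.

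The share of members whose response differed varied among the gene lists, beside the 6.49% over all genes. It was 14.4% (46 of 320) in receptor-like kinases, 14.6% (15 of 103) in AP2/ERF factors and 13.4% (18 of 134) in stress ubiquitin ligases. Among stress proteins 6 of 39 glutathione S-transferases (15.4%), 6 of 43 heat shock proteins (14%) and 2 of 18 LEA genes (11.1%) differed. Of 79 photosystem genes 1 differed (1.27%), and of 42 plastid-type ribosomal genes 0 did. The members that follow were chosen after their values were seen. GolS2 rose less in Micro-TOM-EX than in Micro-TOM, with log2 changes of 5.90 and 7.39 (difference of log2 changes -1.49 ± 0.32 SE, adjusted p = 0.012). BAM1 did too, with 3.21 and 4.52 (difference of log2 changes -1.31 ± 0.24 SE, adjusted p = 0.0041). JAZ1 rose more, with 5.59 and 3.39 (difference of log2 changes 2.2 ± 0.53 SE, adjusted p = 0.02). ACO1 also rose more, with 6.47 and 5.24 (difference of log2 changes 1.23 ± 0.33 SE, adjusted p = 0.035), and so did the esterase LOC101257443 of the wax and cutin list, with 4.91 and 2.29 (difference of log2 changes 2.62 ± 0.27 SE, adjusted p = 4.1e-05).

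**Figure D5:**
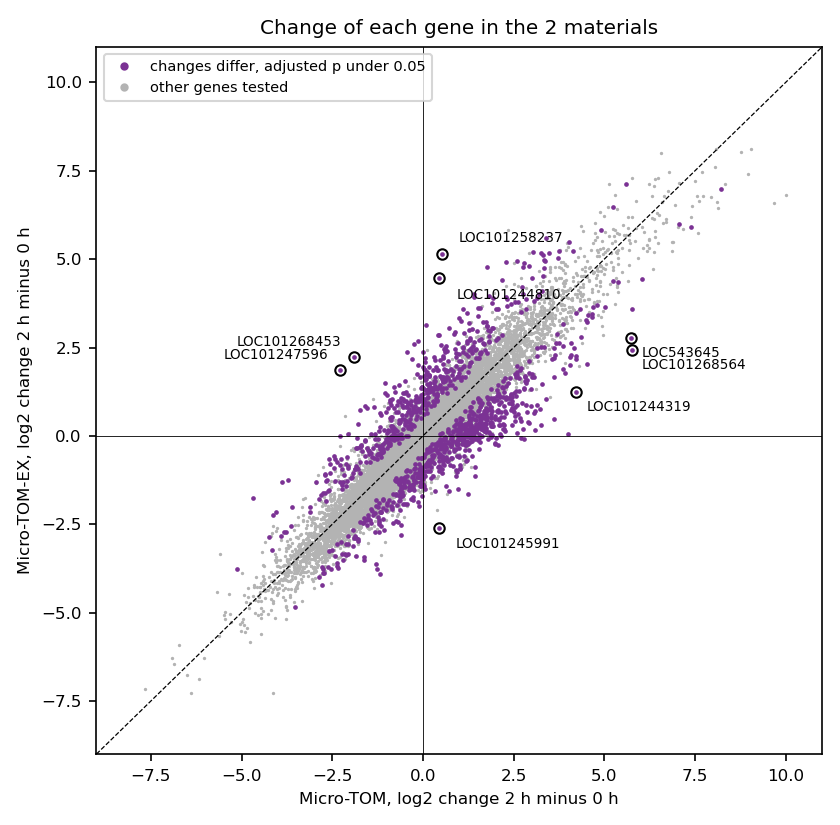
log2 change at 2 h in Micro-TOM (horizontal) and Micro-TOM-EX (vertical) for each of 18402 genes, purple where the changes differ at an adjusted p under 0.05 in limma (1194 genes), with the diagonal dashed. Most genes lie along the diagonal. The 8 circled genes have the largest differences in each direction among those with a descriptive name and a mean of at least 5 FPKM in some group.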

How the data were processed

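Leaf RNA was sequenced in 18 libraries, 6 groups of 3, per the labels. The authors deposited FPKM values per gene. Per the submitters' processing notes, which give no roles, the tools included RSEM 1.2.12 and DESeq2 1.4.5, with HISAT2 2.0.4 and also Bowtie2 2.2.5; the labels name no genome build. The deposited table held each FPKM column in duplicate with identical values, and the 18 duplicates were not used. It also held the authors' q-values and log2 fold changes, which served as an alternative only.

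Values were taken as log2(FPKM + 1) for genes with at least 1 FPKM in 3 or more libraries. limma 3.58.1 in R 4.3.3 was fitted to all 18 libraries with 1 mean per group and an intensity trend, and p-values were adjusted over all 18402 genes by Benjamini-Hochberg with a threshold of 0.05. The difference between the materials was tested as a contrast of their changes. No read counts were used, so no counting interval is given. On simulated data the fit found 77% of 100 genes changed 2-fold and 98% of 100 changed 4-fold for Micro-TOM-EX at 2 h, with 14 false calls among 18402 genes. The changed genes were drawn from those well above the filter, and no other gene changed. In the data 75.9% of genes were called, so the simulated rates do not carry over to this comparison.

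The members, the gene lists and the rule for named genes were chosen with earlier results of these data known. Lists were drawn from gene descriptions, and 103 members matched only by wording were removed by name. Genes named were the 10 largest rises and 10 largest falls, the 6 largest gains and 6 largest losses in FPKM, up to 3 in each direction per list, all members of short lists, and the 4 largest differences between the materials in each direction. The alternatives were median ratio scaling, other filters, a pseudocount of 0.1, the compared groups only, a replicate block, fits without single libraries and the deposited q-values. The main fit did not treat replicate numbers as pairs. Correlations of same-numbered deviations were -0.03, 0.07 and 0.03, which cannot show whether the numbers pair the samples.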

Additional observations from a re-analysis of the deposited data

Results flagged for a closer look

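The 2 h responses of Micro-TOM-EX and Micro-TOM differed by a test of the difference itself in 1194 genes, and 3649 genes (19.8%) had an unadjusted p under 0.05 in limma. The extremes that follow were ranked only among genes with a descriptive name and a mean of at least 5 FPKM in some compared group. The 4 most positive differences on the log2 scale, Micro-TOM-EX minus Micro-TOM, were 4.62 for the STAY-GREEN-like LOC101258237, 4.15 for the cellulose synthase-like LOC101247596, 4.14 for the cellulose synthase-like LOC101268453 and 4.0 for LOC101244810. The 4 most negative were -3.33 for the receptor kinase LOC101268564, -3.04 for the ACC oxidase homolog LOC101245991, -2.98 for the dicyanin LOC543645 and -2.98 for the MADS-box gene LOC101244319.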

How the results depend on the processing

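Under the alternatives with the main unit the genes higher at 2 h numbered 4331 to 6716 and those lower 6813 to 9687. The authors' deposited table called 6390 of the tested genes higher and 6046 lower, and 10920 genes were called in the same direction by both, with 3 in opposite directions. Leaving out single libraries gave 4513 to 5080 higher, 8516 to 8941 lower and 693 to 1468 genes whose response differed between the materials, 693 without Micro-TOM-EX 2 h replicate 3 and 727 without Micro-TOM 2 h replicate 1. Fitted with the replicate block, 4896 genes were higher, 8975 lower and 1023 differed. Whether the numbers pair the samples is not known. Median ratio scaling turned the majority of 12 of 69 lists and made HsfA1a 0.0361 (adjusted p = 0.77); the cause was not tested. Over all fits without 1 library, named genes fell below the threshold 43 times and 6 newly passed. List medians also depended on the filter. With no filter the median log2 change was 0.304 instead of 0.797 for heat shock proteins and 0.416 instead of 0.833 for phenylpropanoid enzymes. For auxin genes it was -0.474 instead of -0.89. FPKM gives no depth per value, so limits of detection are unknown.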
